A study of Mus musculus with 2 samples.

Results

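The genes described here were the 8 members of the vascular endothelial growth factor (VEGF) system that encode 3 ligands (Vegfa, Vegfb and Vegfc), 3 receptor tyrosine kinases (Flt1, Kdr and Flt4) and both neuropilin co-receptors (Nrp1 and Nrp2). They were taken by gene symbol, and all 8 were found among the 32285 genes of the count tables. Levels were measured by single-nucleus RNA sequencing of interscapular brown adipose tissue (BAT) from mice aged 8 weeks, with 1 library per genotype. The WT library came from Srsf1 flox/flox mice without Cre, and the KO library from Adipoq-Cre; Srsf1 flox/flox mice, so both carried the floxed alleles of the splicing factor Srsf1. Cre was driven by the adiponectin promoter, which is active in mature adipocytes. The number of mice behind each library was not given in the sources used here. With 1 library per genotype there was no replicate and no test, and every difference between WT and KO is equally a difference between the 2 libraries.

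VEGF-A binds VEGF receptor 1, encoded by Flt1, and VEGF receptor 2, encoded by Kdr, on endothelial cells, and signalling through VEGF receptor 2 drives the growth and survival of blood vessels. VEGF-B binds VEGF receptor 1 only, while VEGF-C acts mainly through VEGF receptor 3, encoded by Flt4, which is best known from lymphatic vessels. The neuropilins bind VEGF together with these receptors and also bind class 3 semaphorins. Brown fat has a dense capillary bed, and adipocyte VEGF-A is known as a main support of it.

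Vegfa (ENSMUSG00000023951) lies on chromosome 17 of GRCm38 from 46016993 to 46032369, on the minus strand. Flt1 (ENSMUSG00000029648) and Kdr (ENSMUSG00000062960) are both on the minus strand of chromosome 5, from 147561604 to 147726011 and from 75932827 to 75978458. The results turned mostly on these 3 genes, and their promoters are shown for that reason, as the 250 bases before the RefSeq start on the gene's own strand (GRCm38.p6). They span chr17:46032378-46032627 for Vegfa, chr5:147726012-147726261 for Flt1 and chr5:75978456-75978705 for Kdr. Capitals mark the GC box GGGCGG on either strand.

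Vegfa promoter: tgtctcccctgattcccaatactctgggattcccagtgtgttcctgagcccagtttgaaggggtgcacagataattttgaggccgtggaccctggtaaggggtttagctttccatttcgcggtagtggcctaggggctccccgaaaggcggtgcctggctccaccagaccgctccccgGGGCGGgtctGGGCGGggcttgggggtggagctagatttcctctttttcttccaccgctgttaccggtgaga
Flt1 promoter: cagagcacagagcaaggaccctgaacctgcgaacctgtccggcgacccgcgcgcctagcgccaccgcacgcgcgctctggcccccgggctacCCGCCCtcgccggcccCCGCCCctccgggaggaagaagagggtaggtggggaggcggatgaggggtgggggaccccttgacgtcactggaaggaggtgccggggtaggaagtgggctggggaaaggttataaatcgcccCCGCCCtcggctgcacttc
Kdr promoter: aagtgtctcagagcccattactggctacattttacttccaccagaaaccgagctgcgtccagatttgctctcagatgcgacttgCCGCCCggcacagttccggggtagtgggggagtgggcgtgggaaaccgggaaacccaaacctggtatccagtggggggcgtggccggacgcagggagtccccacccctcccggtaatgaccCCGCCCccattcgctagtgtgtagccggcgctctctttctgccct

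The GC box was found 2 times in the Vegfa window, 3 times in that of Flt1 and 2 times in that of Kdr, and 32.7% of the 32851 promoter windows of this length held it at least once. The letters ACGTG, the core of the hypoxia response element, were in none of these 3 windows on either strand, against 16.6% of all windows. GGAA, the core bound by ETS factors, was matched 6, 4 and 4 times in Vegfa, Flt1 and Kdr, and 93.4% of all windows held it. These letter matches are a description of the windows. All 8 members had a RefSeq promoter entry, and Vegfa had a second one inside the gene, which is not shown. The window of that entry held ACGTG 1 time. Bases outside these windows were not searched.

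The WT library held 93102814 UMIs (unique molecular identifiers, 1 per captured RNA molecule) in 12846 barcodes, and the KO library 80090208 UMIs in 11495. Filtering left 12771 and 11378 nuclei with medians of 3428 and 4354.5 UMIs. The median share of mitochondrial UMIs was 1.10% in WT and 0.0489% in KO, and 52 barcode sequences occurred in both libraries. Each nucleus was called to a class from summed marker genes that include none of the 8 members. The WT and KO libraries gave 3337 and 2547 adipocyte nuclei, 2615 and 1439 endothelial nuclei, 497 and 1713 adipocyte stem and progenitor cell (ASPC) nuclei, 564 and 343 mural nuclei (pericytes and smooth muscle), and 657 and 1845 myeloid nuclei. A further 4821 and 3180 nuclei were left unassigned, and 785 and 584 of the nuclei with a class lay near the limit of the call, with odds under 100. Levels are UMIs of a gene per 1000000 UMIs of the class (CPM), with exact 95% Poisson intervals in brackets, and these and all other intervals cover counting error only. Srsf1, the deleted gene, had 189.6 CPM in WT and 62.0 in KO adipocyte nuclei (log2 ratio KO to WT -1.61). In endothelial nuclei, a class in which the Adipoq promoter is not known to be active, Srsf1 had 139.3 and 79.8 CPM (-0.80). Its ratio was -0.73 in ASPC, -0.72 in mural and -0.75 in myeloid nuclei.

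The classes were not composed alike in the libraries. An unsupervised clustering that left out the members placed 85.1% of WT adipocyte nuclei in cluster 5 and 74.4% of KO adipocyte nuclei in cluster 22, which held 12 WT nuclei. A further 14.1% of KO adipocyte nuclei were in cluster 19, in which 87.0% of nuclei were called doublets. Likewise, 61.7% of WT endothelial nuclei were in cluster 3 and 76.5% of KO endothelial nuclei in cluster 4. The adipocyte markers themselves differed between the libraries: Pparg, the master regulator of fat cell formation, had 5784 CPM in WT and 2557 in KO adipocyte nuclei, while the lipid droplet gene Plin1 had 1081 and 1101.

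The question for the ligands was which nuclei held their RNA and how the level in them differed in KO. Of the 5 classes above, Vegfa was highest in adipocyte nuclei in both libraries, at 1034 CPM (1023 to 1045; 32723 UMIs) in WT and 338 CPM (331 to 345; 7985 UMIs) in KO. This is a log2 ratio, KO to WT, of -1.61 (-1.65 to -1.58). The median gene in adipocyte nuclei had a log2 ratio of 0.19, and relative to that gene the Vegfa ratio was -1.80. Of the adipocyte nuclei, 98.9% in WT (median depth 7381 UMIs) and 83.0% in KO (6740 UMIs) held a Vegfa UMI. After every nucleus was thinned to 1000 UMIs, which left out 8 WT and 51 KO adipocyte nuclei, the shares were 63.2% and 29.2%. Per nucleus the median was 10.1 Vegfa UMIs per 10000 in WT, with quartiles of 7.28 and 13.4, and 3.02 in KO, with quartiles of 1.51 and 5.14. The upper quartile in KO lay under the lower quartile in WT.

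Adipocyte nuclei supplied 50.9% (50.6 to 51.3, exact binomial) of all Vegfa UMIs of the WT library and 66.6% (65.7 to 67.4) of those in KO. Unassigned nuclei held another 33.1% and 18.9%, so that the shares depend on how many nuclei received a class. By Leiden clusters in place of class calls, the adipocyte share was 51.5% in WT and 47.0% in KO, the other way round, so that no direction is read from the shares.

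In the adipocyte cluster that both libraries filled (cluster 0, 281 WT and 64 KO nuclei, of which 217 and 64 had been called adipocyte), Vegfa was at 780.6 CPM in WT and 385.8 in KO, a log2 ratio of -1.02 (-1.23 to -0.81). The lower KO level was thus also present among nuclei that clustered together, with a smaller ratio. Flt1, which adipocyte nuclei should lack, was at 119.8 CPM in WT and 11.6 in KO nuclei of cluster 0. The part of free RNA taken up with the nuclei in the Vegfa ratio of cluster 0 was not tested.

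**Figure D1:**
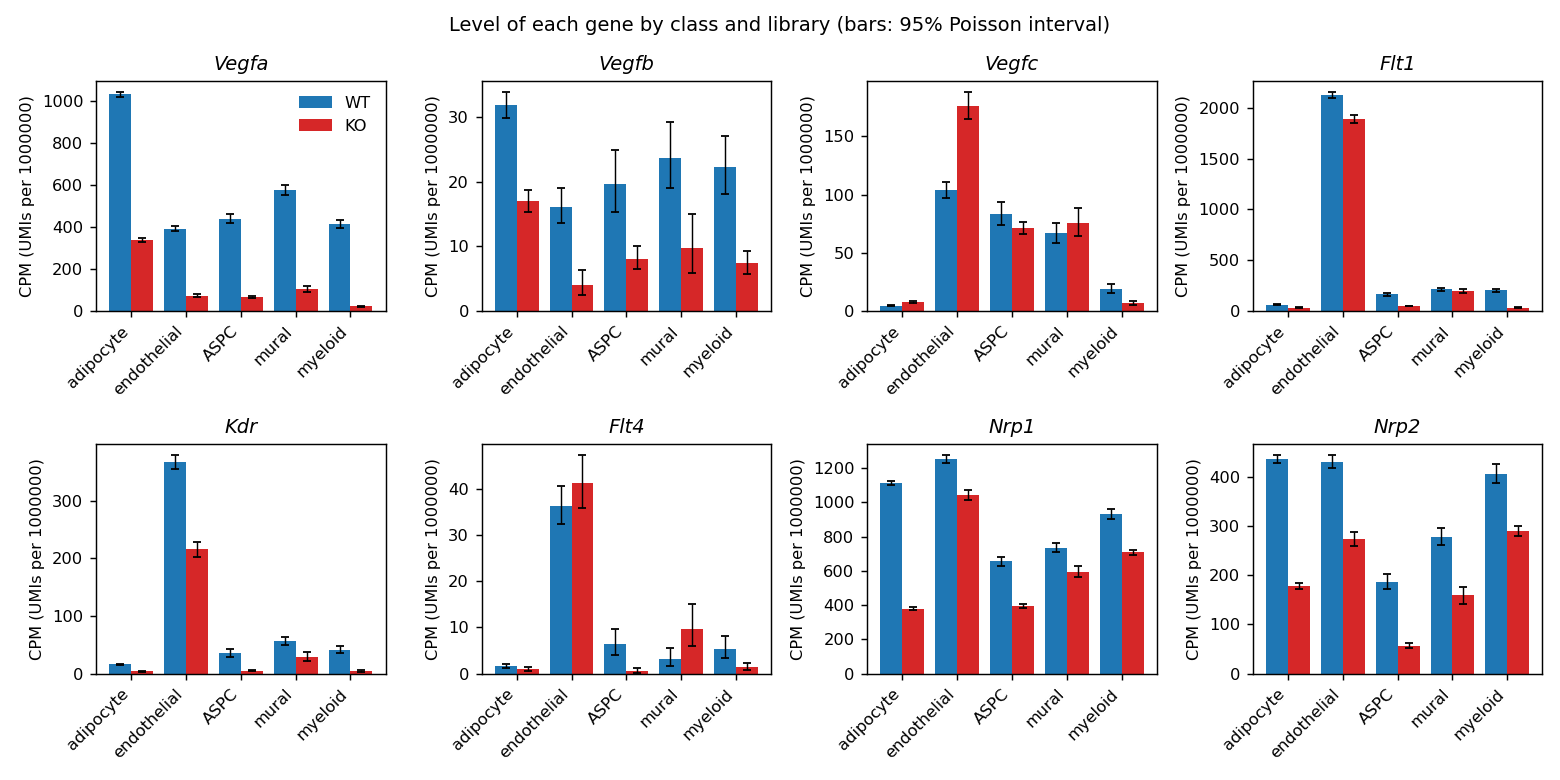
Level of each gene in CPM (vertical axes, UMIs per 1000000) in 5 classes of nuclei in the WT (blue) and KO (red) library, with 95% Poisson intervals as error bars. Vegfa was highest in adipocyte nuclei and Flt1 and Kdr in endothelial nuclei in both libraries.

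Vegfa UMIs were also present in every other class. In WT, the level was 576.9 CPM (553.0 to 601.6) in mural, 439.5 (417.7 to 462.2) in ASPC, 415.1 (396.4 to 434.5) in myeloid and 393.1 (380.0 to 406.6) in endothelial nuclei. In KO, the same classes had 105.5 (91.9 to 120.4), 63.6 (59.0 to 68.6), 20.97 (18.2 to 24.1) and 72.9 (65.6 to 80.9) CPM. Neighbouring levels whose intervals overlapped were ASPC and myeloid, and myeloid and endothelial, in WT, and endothelial and ASPC in KO. The KO to WT log2 ratio was -2.43 in endothelial, -2.45 in mural, -2.79 in ASPC and -4.31 in myeloid nuclei.

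These levels moved with the adipocyte markers, which these classes should lack. The 8 adipocyte markers summed to 10076 CPM in WT adipocyte nuclei and to between 3624 and 5774 CPM in the other 4 classes, against 8249 CPM and between 656.3 and 2815 CPM in KO. Per 100 adipocyte marker UMIs, WT nuclei held 10.3 Vegfa UMIs in adipocyte, 11.3 in ASPC, 11.5 in myeloid, 9.99 in mural and 8.44 in endothelial nuclei. In KO, the values were 4.10, 6.78, 3.20, 3.90 and 2.59. Each other class's level, scaled by how much of that class's marker sum was present, was then subtracted, which can take off more than free RNA added since those levels hold free RNA too. After this, Vegfa was at 987.0 CPM in WT and 326.8 in KO adipocyte nuclei and below 0 in endothelial, mural and myeloid nuclei of both libraries and in WT ASPC nuclei, and it was 10.3 CPM in KO ASPC nuclei. The RNA counted in a nucleus and free RNA taken up with it cannot be told apart for Vegfa outside adipocyte nuclei.

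**Figure D2:**
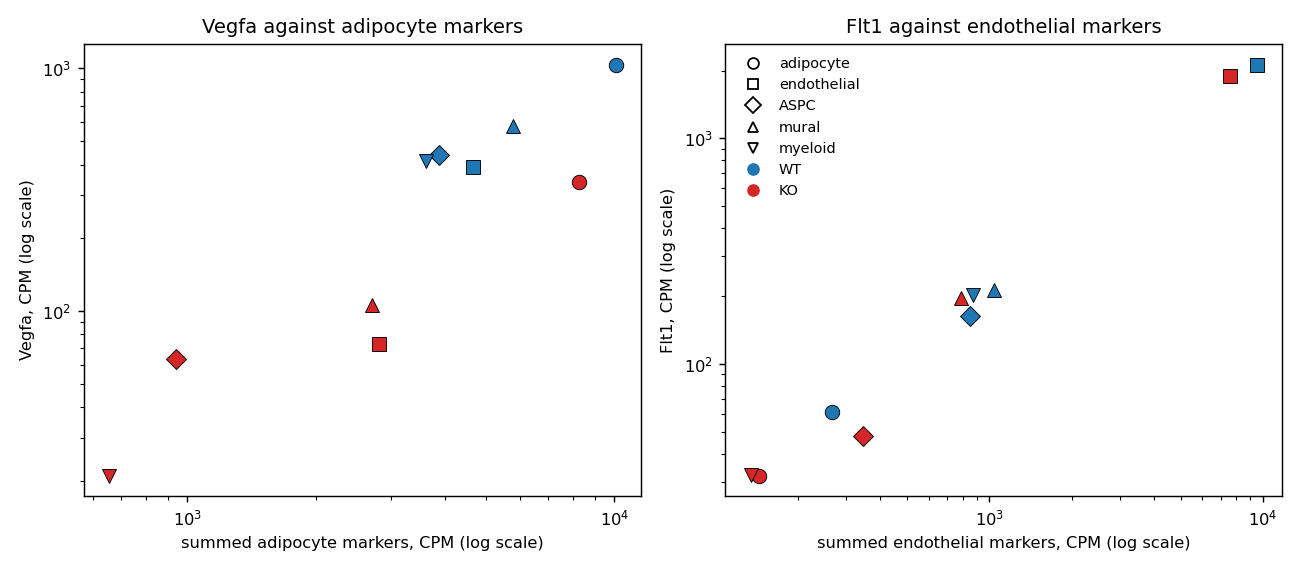
Vegfa level against the summed adipocyte markers (left) and Flt1 level against the summed endothelial markers (right), both in CPM on log axes, with 1 point per class and library. In WT, the classes other than adipocytes held between 8.44 and 11.5 Vegfa UMIs per 100 adipocyte marker UMIs, and adipocytes 10.3.

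Vegfb, the ligand of VEGF receptor 1, was far less counted. It was at 31.9 CPM (29.97 to 33.9; 1010 UMIs) in WT adipocyte nuclei and 17.0 CPM (15.4 to 18.7; 401 UMIs) in KO, a log2 ratio of -0.91 (-1.08 to -0.74), or -1.10 relative to the median gene. Adipocyte nuclei were the highest of the 5 classes in both libraries. The other 4 classes ranged from 16.2 to 23.8 CPM in WT and from 4.06 to 9.68 CPM in KO, and all neighbouring pairs among them had overlapping intervals in both libraries. In cluster 0 the Vegfb ratio was -0.24 with an interval from -1.13 to 0.55, on 15 KO UMIs, so that a difference was not detectable there at this depth.

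Vegfc, the ligand of VEGF receptor 3, had its highest level in endothelial nuclei, and there it was higher in KO. It had 103.8 CPM (97.1 to 110.8; 892 UMIs) in WT and 176.1 CPM (164.6 to 188.3; 867 UMIs) in KO endothelial nuclei, a log2 ratio of 0.76 (0.63 to 0.90). ASPC nuclei had 83.4 and 71.2 CPM, and mural nuclei 66.6 and 75.5 CPM. Adipocyte nuclei had little Vegfc in either library, 4.52 CPM on 143 UMIs in WT and 7.58 CPM on 179 UMIs in KO. Endothelial nuclei supplied 37.8% of the Vegfc UMIs in WT and 35.2% in KO, while the ASPC share was 12.2% in WT and 31.0% in KO, where ASPC nuclei were more numerous.

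The Vegfc RNA was not spread evenly over endothelial nuclei. Endothelial nuclei were sorted by capillary, arterial and venous marker genes, none of them a member, which named 245, 189 and 150 WT and 143, 117 and 69 KO nuclei and left 2031 and 1110 with no kind. Arterial nuclei had 602.9 CPM Vegfc (545.1 to 665.2) in WT and 1027 CPM (929.8 to 1132) in KO. Venous nuclei had 203.7 CPM (171.6 to 239.9) and 582.7 CPM (503.9 to 670.2). Capillary nuclei had 23.4 CPM on 16 UMIs and 21.8 CPM on 10 UMIs. The KO to WT log2 ratio was thus 0.77 (0.57 to 0.97) in arterial and 1.52 (1.20 to 1.84) in venous nuclei, and -0.10 (-1.40 to 1.13) in capillary nuclei, where a difference was not detectable at this depth.

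Cluster 2, with the arterial genes Gja5 and Bmx among its leading genes, and cluster 12, with the venous genes Selp and Vwf, held at least 60 nuclei of each library. Their Vegfc ratios were 1.67 and 1.60. Of the 373 WT and 101 KO nuclei of cluster 2, 251 and 97 had been called endothelial. Vegfa was at 654.6 CPM in the WT nuclei of cluster 2 and 99.8 in the KO ones. The part of free RNA in the ratios of the members within cluster 2 was not tested. In cluster 4, which held 25 WT and 1190 KO nuclei, the ratio was -0.46 (-1.15 to 0.32).

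**Figure D3:**
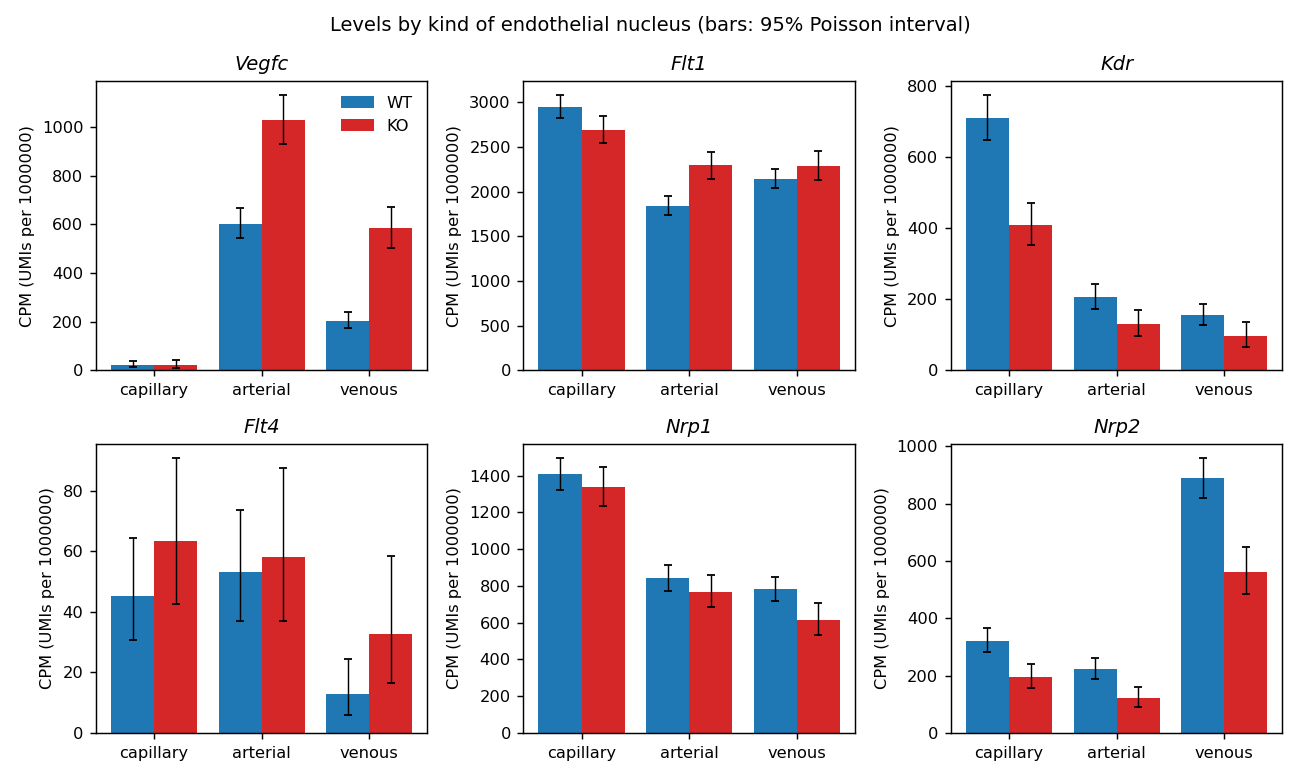
Levels of 6 members in CPM (vertical axes, UMIs per 1000000) in capillary, arterial and venous endothelial nuclei of the WT (blue) and KO (red) library, with 95% Poisson intervals. Vegfc was highest in arterial, Kdr in capillary and Nrp2 in venous nuclei in both libraries.

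For the receptors, the question was whether their level in endothelial nuclei differed where the adipocyte ligand was lower. Flt1, which encodes VEGF receptor 1, was at 2126 CPM (2095 to 2157; 18269 UMIs) in WT and 1886 CPM (1848 to 1925; 9286 UMIs) in KO endothelial nuclei. The log2 ratio was -0.17 (-0.21 to -0.14). Flt1 UMIs were present in 91.7% of WT endothelial nuclei (median depth 2305 UMIs) and 87.1% of KO ones (2207 UMIs). After thinning, which left out 127 and 129 nuclei, the shares were 80.8% and 76.8%. Adipocyte nuclei, which should lack Flt1, had a UMI in 23.5% and 9.07% of nuclei at their higher depths and in 4.24% and 2.16% after thinning.

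The direction of the small Flt1 difference rested on which endothelial nuclei were counted. With the nuclei of the top 10% of doublet scores removed, the ratio was 0.02, and as a mean over nuclei it was -0.00461. By kind, Flt1 was at 2952 CPM in WT and 2690 in KO capillary nuclei (-0.13), at 1841 and 2293 in arterial nuclei (0.32, from 0.19 to 0.44), and at 2143 and 2283 in venous nuclei (0.09, from -0.04 to 0.22). Within clusters 2, 4 and 12 the ratio was 0.62, 1.10 and 0.13. In cluster 2, 251 of 373 WT and 97 of 101 KO nuclei had been called endothelial, and cluster 4 held 25 WT nuclei. The part of this in the ratios was not tested.

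Kdr, which encodes VEGF receptor 2, was at 367.5 CPM (354.8 to 380.5; 3158 UMIs) in WT and 215.9 CPM (203.2 to 229.3; 1063 UMIs) in KO endothelial nuclei, a log2 ratio of -0.77 (-0.87 to -0.67). A Kdr UMI was found in 54.5% and 38.8% of these nuclei, and in 33.5% and 20.8% after thinning, against 1.68% and 0.28% of thinned adipocyte nuclei. Capillary nuclei had the highest Kdr level, 708.0 CPM (646.3 to 774.0) in WT and 408.3 CPM (351.9 to 471.2) in KO. Arterial nuclei had 204.5 and 129.1 CPM, and venous nuclei 155.2 and 95.1 CPM. The intervals of the log2 ratio overlapped between the 3 kinds, with -0.79 (-1.05 to -0.55) in capillary, -0.66 (-1.16 to -0.19) in arterial and -0.71 (-1.32 to -0.13) in venous nuclei. In clusters 2 and 12 it was -1.82 and -0.87. In cluster 4, in which 36 Kdr UMIs came from 25 WT nuclei, it was 0.23 (-0.25 to 0.76).

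The endothelial markers differed as well between the libraries. The 12 of them summed to 9524 CPM in WT and 7604 in KO endothelial nuclei, and single markers went both ways, with the endothelial sialomucin gene Emcn at 610.2 and 266.7 CPM and the junction gene Pecam1 at 696.1 and 890.2 CPM. Per 100 endothelial marker UMIs, Flt1 had 22.3 UMIs in WT and 24.8 in KO endothelial nuclei, and Kdr had 3.86 and 2.84. The part of the marker difference in the receptor ratios was not tested.

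Flt1 and Kdr UMIs outside endothelial nuclei moved with the endothelial markers. In WT, adipocyte, ASPC, mural and myeloid nuclei held 22.9, 19.1, 20.6 and 23.1 Flt1 UMIs per 100 endothelial marker UMIs, close to the 22.3 of endothelial nuclei. In KO, they held 22.2, 13.8, 24.7 and 23.9. For Kdr, the same classes held 5.88, 4.14, 5.41 and 4.70 in WT and 2.47, 1.42, 3.61 and 3.40 in KO. Flt1 levels in these classes were 61.2, 162.7, 213.7 and 202.4 CPM in WT and 32.0, 47.7, 195.5 and 32.1 CPM in KO, and Kdr levels were 15.7, 35.3, 56.3 and 41.2 CPM in WT and 3.56, 4.94, 28.5 and 4.57 CPM in KO. Endothelial nuclei supplied 57.1% of Flt1 and 51.1% of Kdr UMIs in WT, and 71.1% and 70.9% in KO.

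Flt4, which encodes VEGF receptor 3, was the least counted receptor in blood endothelial nuclei. It was at 36.3 CPM (32.4 to 40.6; 312 UMIs) in WT and 41.2 CPM (35.8 to 47.3; 203 UMIs) in KO endothelial nuclei. The log2 ratio of 0.18 had an interval of -0.08 to 0.44, so that a difference was not detectable at this depth over all endothelial nuclei. Within clusters it was 1.04 (0.24 to 1.80) in cluster 2, 1.28 (-0.53 to 2.99) in cluster 12 and -0.84 (-1.66 to 0.10) in cluster 4, on 8 WT and 6 KO UMIs in cluster 12. Lymphatic endothelial nuclei, called by markers such as the transcription factor gene Prox1, were few, 38 in WT and 23 in KO. They had 322.0 CPM (259.9 to 394.4; 93 UMIs) and 888.4 CPM (696.4 to 1117; 73 UMIs). A Flt4 UMI was found in 65.8% and 82.6% of them. The lymphatic markers that called these nuclei also differed, at 22.5 UMIs per 10000 in WT and 81.1 in KO, and the adipocyte markers summed to 4591 CPM and 1813 CPM. The part of these in the Flt4 levels was not tested. In cluster 16, the lymphatic cluster with 30 WT and 23 KO nuclei, Flt4 had 553.0 and 911.9 CPM, a log2 ratio of 0.72 (0.24 to 1.20). In adipocyte, ASPC, mural and myeloid nuclei Flt4 was at 9.68 CPM or less.

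Nrp1, which encodes a co-receptor that joins VEGF receptor 2, had UMIs in every class. Endothelial nuclei had 1255 CPM (1231 to 1279; 10784 UMIs) in WT and 1044 CPM (1015 to 1073; 5138 UMIs) in KO, a log2 ratio of -0.27 (-0.31 to -0.22). After subtraction of the other classes' part the ratio was 0.35, on the other side of 0, and within clusters 2, 4 and 12 it was -1.09, 0.29 and -0.53. The larger difference was in adipocyte nuclei, with 1111 CPM (1099 to 1123; 35163 UMIs) in WT and 379.6 CPM (371.8 to 387.5; 8969 UMIs) in KO, a log2 ratio of -1.55 (-1.58 to -1.52). Per nucleus the adipocyte median was 9.49 Nrp1 UMIs per 10000 in WT and 2.43 in KO. In cluster 0, however, the 2 libraries had 838.2 and 779.3 CPM, a ratio of -0.10 (-0.26 to 0.05), so that a difference was not detectable among the 281 WT and 64 KO nuclei of that cluster. Myeloid nuclei had 933.7 and 707.2 CPM, mural nuclei 735.1 and 595.6, and ASPC nuclei 655.5 and 395.4. After the subtraction they had 342.4 and 637.9, -170.5 and 209.0, and 36.5 and 207.0 CPM, with KO the higher. No direction is therefore read for Nrp1 in these classes. Before the subtraction, the order of the classes differed between the libraries. Adipocyte nuclei came second of 5 in WT and last in KO, where their interval overlapped with that of ASPC nuclei.

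Nrp2, which encodes the co-receptor that joins VEGF receptor 3, was at 437.6 CPM (430.4 to 445.0) in WT and 178.6 CPM (173.2 to 184.0) in KO adipocyte nuclei, a log2 ratio of -1.29 (-1.34 to -1.24). Endothelial nuclei had 432.3 CPM (418.5 to 446.4) and 274.4 CPM (260.0 to 289.5), a ratio of -0.66 (-0.75 to -0.57). In WT, the intervals of adipocyte and endothelial and of endothelial and myeloid nuclei overlapped, and in KO those of myeloid and endothelial nuclei. After the subtraction the endothelial ratio was -0.11, while within clusters 2, 4 and 12 it was -3.74, -1.21 and -0.38, on 546 and 8 UMIs in cluster 2. In cluster 0 the difference was larger than over all adipocyte nuclei, at 196.7 CPM on 581 UMIs in WT and 9.65 CPM on 5 UMIs in KO. WT ASPC and mural nuclei had 187.0 and 279.2 CPM of Nrp2, and -52.1 and -61.8 CPM after the subtraction. Flt1 in cluster 0 was at 119.8 CPM in WT and 11.6 in KO. The part of free RNA in the Nrp2 difference of cluster 0 was not tested. Among the capillary, arterial and venous kinds, venous nuclei had the highest level, 888.7 CPM (820.3 to 961.2) in WT and 561.9 CPM (484.6 to 647.9) in KO. Capillary nuclei had 321.8 and 194.3 CPM and arterial nuclei 222.7 and 121.5 CPM. In the lymphatic cluster 16, Nrp2 had 511.0 CPM (400.5 to 642.5; 73 UMIs) in WT and 599.6 CPM (442.1 to 795.0; 48 UMIs) in KO.

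Across the 8 members, 4 were past a log2 ratio of -1 in adipocyte nuclei (Vegfa, Kdr, Nrp1 and Nrp2), where 15.3% of the 15213 genes with at least 50 UMIs over both libraries were. None was past 1, where 26.3% of genes were. Relative to the median gene, 6 of 8 were past -1 (Flt1 and Vegfb in addition), against 18.8% of genes. In endothelial nuclei, 2 of 8 (Vegfa and Vegfb) were past -1, against 12.4% of 12160 genes, and none past 1, against 7.48%. Of the 7 members with enough UMIs in ASPC nuclei, 5 were past -1 (14.6% of genes) and none past 1 (6.8%). In mural nuclei 2 of 7 were past -1 (12.3%) and none past 1 (10.4%), and in myeloid nuclei 5 of 7 were past -1 (18.3%) and none past 1 (6.42%). The median log2 ratio of the members was -1.11 in adipocyte and -0.46 in endothelial nuclei, beside 0.19 and 0.03 over all genes. Markers of other classes moved with these counts. In ASPC nuclei the adipocyte markers were at 38.9 UMIs per 10000 in WT and 9.38 in KO and the endothelial markers at 8.52 and 3.47. In myeloid nuclei they were at 36.2 and 6.56 and at 8.76 and 1.34. In mural nuclei they were at 57.7 and 27.0 and at 10.4 and 7.90. Endothelial nuclei had 46.6 and 28.2 adipocyte marker UMIs per 10000, and adipocyte nuclei 2.67 and 1.44 endothelial ones. The part of these in the counts was not tested.

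**Figure D4:**
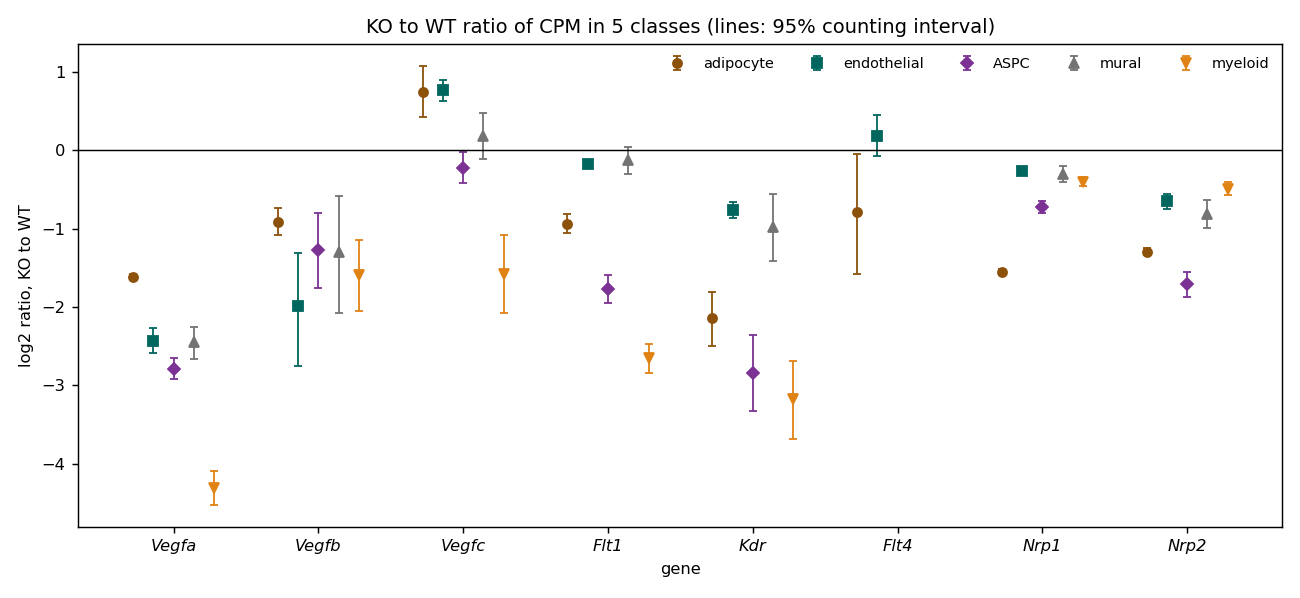
Log2 ratio of CPM, KO to WT (vertical axis), of each gene in 5 classes, with 95% counting intervals as lines; genes with under 50 UMIs in a class are left out. Vegfa lay below 0 in all 5 classes, and Vegfc was above 0 in adipocyte and endothelial nuclei.

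A list of 49 further genes of VEGF signalling was described by counts. In adipocyte nuclei 41 had at least 50 UMIs, with a median log2 ratio of 0.21 beside 0.19 over all genes. Of these, 9 were past -1, where 15.3% of all genes were, and 12 past 1, where 26.3% were. Relative to the median gene, 12 were past -1 and 11 past 1, against 18.8% and 23.0% of all genes. In endothelial nuclei 41 had enough UMIs, with a median of -0.13 beside 0.03. Of these, 6 were past -1, against 12.4% of all genes, and 5 past 1, against 7.48%. The list included Cdh5, Ptprb, Tek and Tie1, which were also among the endothelial markers used to call the classes.

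Among genes that regulate Vegfa, the coactivator gene Ppargc1a, which is known to raise Vegfa, had 5081.5 CPM in WT and 451.0 in KO adipocyte nuclei, a log2 ratio of -3.49 (-3.52 to -3.47). Its relative Ppargc1b had 2683 and 619.0 CPM (-2.12). Genes of the oxygen-sensing prolyl hydroxylases, which mark hypoxia-inducible factors for degradation, were also lower, Egln1 with 247.3 and 100.2 CPM (-1.30) and Egln3 with 9.67 and 2.12 CPM (-2.19). In endothelial nuclei, Ppargc1a (-3.77), Ppargc1b (-2.43) and Egln3 (-2.06) had ratios past -1 as well, beside the lower adipocyte marker sum there, whose part in them was not tested. The hypoxia-inducible factor genes Hif1a (-0.17 in adipocyte and -0.23 in endothelial nuclei) and Epas1 (-0.98 and -0.10) were not past the fold in either class. Epas1 had 209.9 CPM in WT and 106.3 in KO adipocyte nuclei. Relative to the median gene its adipocyte ratio was -1.17, past the fold, and that of Hif1a was -0.36.

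The angiopoietins, ligands of the endothelial receptor encoded by Tek, were lower in KO. Angpt1 had 307.7 CPM in WT and 86.0 in KO adipocyte nuclei (-1.84, from -1.91 to -1.77) and 105.3 and 42.3 CPM in endothelial nuclei (-1.32). Angpt2, which VEGF is known to induce in endothelial cells, had 27.8 and 4.23 CPM in adipocyte nuclei (-2.72) and 30.8 and 10.2 CPM in endothelial nuclei (-1.60). The adipocyte marker sum was lower in KO endothelial nuclei and the endothelial marker sum in KO adipocyte nuclei, and their part in the ratios of both genes was not tested. Tie1, Cdh5 and Ptprb, which are endothelial genes, had ratios of -1.33, -1.36 and -1.02 in adipocyte nuclei. The endothelial marker sum there was 267.5 CPM in WT and 144.0 in KO. Tie1, Cdh5 and Ptprb are part of that sum, so that it is not independent of their ratios. Adamts3, the protease that matures VEGF-C, had 7.33 and 3.66 CPM in endothelial nuclei (-1.004, from -1.85 to -0.23).

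Semaphorins and plexins are the ligands and partners of the neuropilins. In adipocyte nuclei they made up 11 of the 41 listed genes counted and 7 of the 12 past 1, where 26.3% of all genes were. In endothelial nuclei they made up 9 of the 41 and 4 of the 5 past 1, where 7.48% of all genes were. In adipocyte nuclei the semaphorins Sema3c (17.0 CPM in WT and 110.6 in KO, a log2 ratio of 2.71), Sema3a (5.97 and 38.3 CPM, 2.68), Sema3d (0.66 and 3.17 CPM, 2.26) and Sema3e (2.53 and 7.36 CPM, 1.54) were higher. The plexins, which signal for semaphorins, were higher there with Plxna1 at 13.9 and 56.5 CPM (2.02), Plxna4 at 11.2 and 39.3 CPM (1.80) and Plxnd1 at 9.70 and 33.9 CPM (1.81). The other 4 were not past the fold, with Sema3f at 0.78, Plxna2 at 0.79, Sema3b at -0.35 and Sema3g at -0.82. Markers of other cell types were higher in KO adipocyte nuclei, those of ASPC at 0.75 UMIs per 10000 in WT and 3.14 in KO and those of myeloid cells at 0.46 and 3.66, and their part in the higher levels of these low-count genes was not tested. In endothelial nuclei Sema3a (1.39), Sema3c (1.38), Plxna1 (1.06) and Plxna4 (1.05) were past the fold too. Plxna4 was well counted there, with 336.0 CPM in WT and 697.6 in KO. Sema3a had 6.28 and 16.5 CPM, Sema3c 27.0 and 70.1 CPM, and Plxna1 13.6 and 28.4 CPM. Endothelial nuclei also held adipocyte markers, at 46.6 UMIs per 10000 in WT and 28.2 in KO, and ASPC markers, at 3.35 and 5.18. The part of free RNA in these endothelial ratios was not tested. Plxna2, the plexin with most UMIs there, had 715.4 and 610.7 CPM (-0.23), and Plxnd1, Sema3e, Sema3f and Sema3g were at 0.18, 0.03, 0.23 and 0.70. The remaining genes above the fold in adipocyte nuclei were the lymphatic ligand Vegfd (11.3 and 27.3 CPM, 1.27), the integrin Itgb3 (2.33 on 100 UMIs in all), Nid2 (2.10), the phosphatase Dusp5 (2.15 on 56 UMIs) and the nitric oxide synthase Nos3 (1.02). In endothelial nuclei the last was Egr3, an early response gene (1.26 on 64 UMIs).

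**Figure D5:**
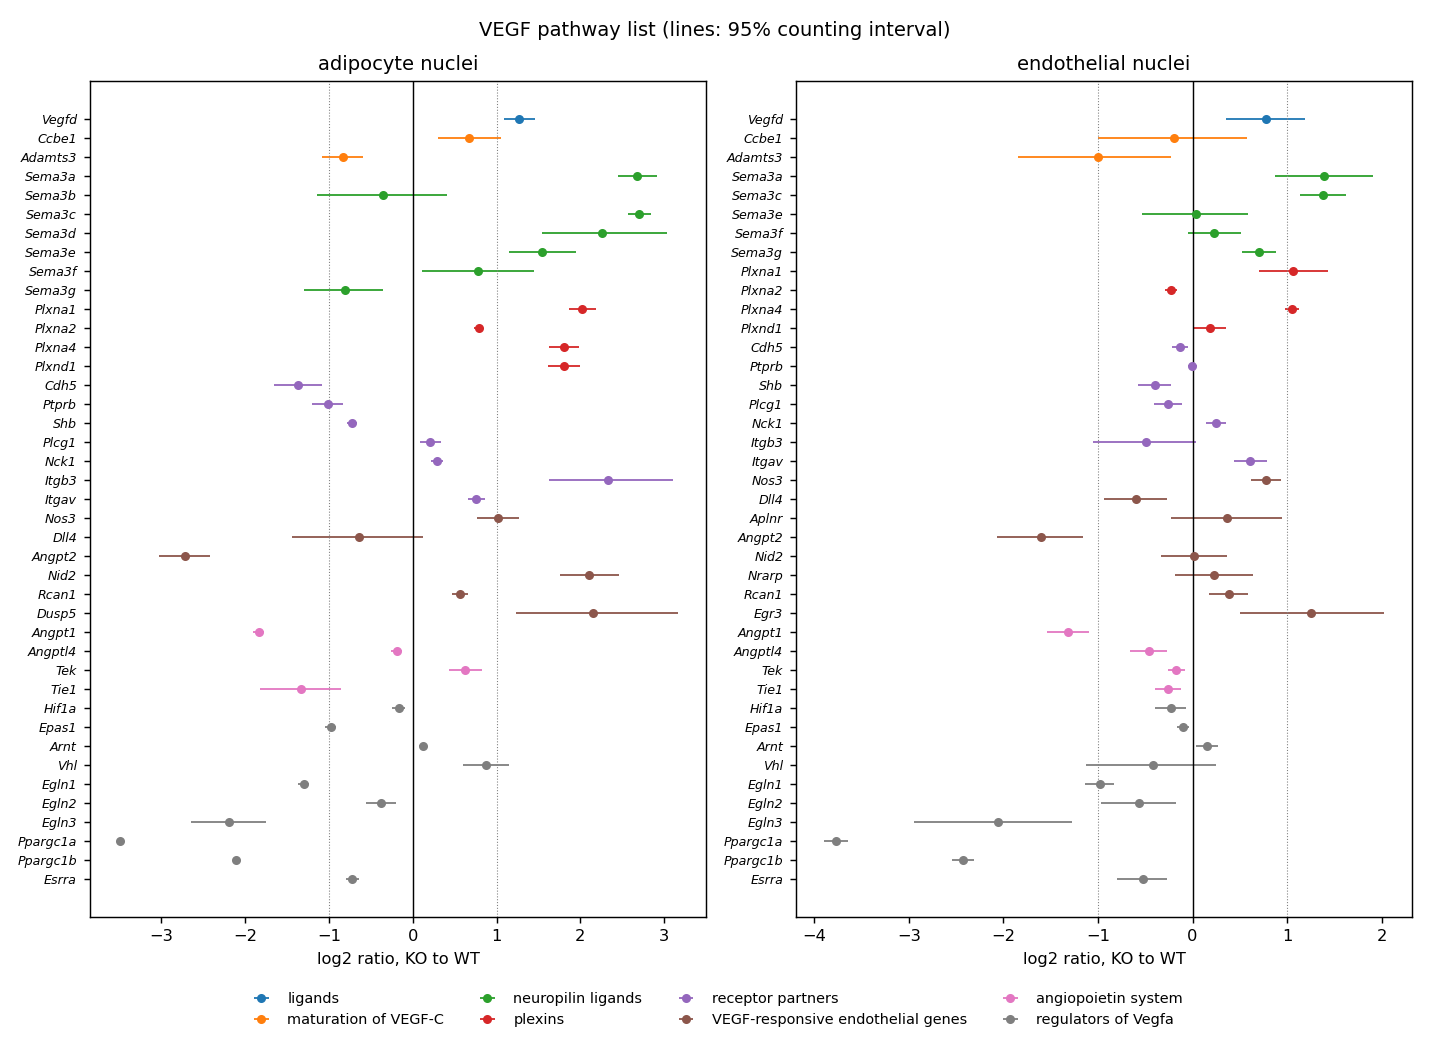
Log2 ratio, KO to WT (horizontal axis), of the listed VEGF signalling genes with at least 50 UMIs in adipocyte (left) and endothelial (right) nuclei, coloured by role, with 95% counting intervals as lines and dotted lines at -1 and 1. Ppargc1a, Ppargc1b, Egln3, Angpt1 and Angpt2 lay left of -1 in both classes, and Sema3a, Sema3c, Plxna1 and Plxna4 right of 1.

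The genes most alike in pattern were found by Pearson's r of log2(CPM + 1) over 13 points, each a class in a library with at least 50 nuclei. These points share 2 libraries and free RNA, and r is a description. Vegfa was most like Slc25a42, a mitochondrial carrier of coenzyme A (0.994), the lipolysis inhibitor G0s2 (0.994) and Gadd45g (0.992). Flt1 was most like the endothelial cadherin Cdh5, Cd300lg and Etl4 (0.997, 0.997 and 0.995). Kdr was most like Emcn, Adgrl4 and the capillary gene Gpihbp1 (0.993, 0.993 and 0.990). Cdh5, Emcn and Adgrl4 were among the markers that called the endothelial nuclei, so that their r is not independent of the classes. Vegfc was most like Eml1, Fbxl7 and Hdgfl3 (0.975, 0.960 and 0.958). Flt4 was most like the arterial factor gene Sox17, Podxl and Ushbp1, all with 0.964. Lymphatic endothelial nuclei, which had more Flt4 than blood endothelial nuclei, were too few to form a point. The likeness of Flt4 therefore leaves them out. Vegfb was most like Gm10785, Gm48321 and 4930506C21Rik (0.965, 0.960 and 0.957), Nrp1 like Sik1 and Oxr1 (0.926 and 0.912), and Nrp2 like Dusp6, Itprid2 and Zfp706 (0.961, 0.956 and 0.933).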

How the data were processed

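Nuclei were isolated from interscapular BAT and sequenced with 10x Genomics 3′ kits. What the authors deposited are unnormalised UMI counts by gene and barcode, from reads aligned to GRCm38. The submitters' processing notes name Cell Ranger 5.0.0 and Seurat 3.1.1, and whether intronic reads were counted was not given in the sources used here. Barcodes under 200 genes, over 10% mitochondrial UMIs, or further than 3 median absolute deviations from their library's median in log UMIs or log genes were removed. A nucleus received the class whose marker profile fitted its marker sums best, with at least 3 UMIs of that list and odds of 10 over every other class. Conditions on class and cluster names were set after the data had been seen. Clusters came from 2004 variable genes, 30 components, 15 neighbours and Leiden clustering at resolution 0.5, without the members. Doublets were scored with Scrublet and kept, since it called none in WT and 2391 in KO and so did not work in WT. UMIs were summed by class and scaled to 1000000. Intervals at 95% were exact Poisson, exact binomial or, for ratios, exact conditional binomial. The counting procedure was tested on simulated data. Named genes were the members, listed pathway genes past a log2 ratio of 1 with at least 50 UMIs, and the 3 genes most alike to each member among those with 200 UMIs, with Srsf1 and class markers as checks. For Nrp1, 1 of these 3 genes is not reported here. Genes named after their values were seen were Hif1a and Epas1 from the list. Promoters and places came from RefSeq and GENCODE mouse release M21. The members and lists were chosen with earlier results of these data known. Alternatives were no filter, Leiden clusters, stricter odds of 1000, removal of the top 10% of doublet scores, means over nuclei, mitochondrial genes left out, centring on the median ratio, thinning to 1000 UMIs, subtraction of other classes and a minimum of 200 UMIs for the list. Values within clusters and in the largest adipocyte clusters, and both neuropilins in adipocyte nuclei, were added after the data had been seen. Software was Python 3.11.15, scanpy 1.11.5, igraph 0.11.9, numpy 2.4.6, scipy 1.17.1, pandas 2.3.3 and matplotlib 3.10.9.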

Additional observations from a re-analysis of the deposited data

Results flagged for a closer look

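Vegfc had counting intervals on opposite sides of 0 in different classes of the same comparison. The log2 ratio (KO to WT) was 0.75 in adipocyte nuclei, on 143 and 179 UMIs, and 0.76 in endothelial nuclei, on 892 and 867 UMIs. It was -0.23 in ASPC nuclei, on 288 and 764 UMIs, and -1.58 in myeloid nuclei, on 84 and 61 UMIs. In myeloid nuclei the endothelial markers were at 8.76 UMIs per 10000 in WT and 1.34 in KO, and in adipocyte nuclei the ASPC markers were at 0.75 and 3.14. After subtraction of the other classes, Vegfc was below 0 in adipocyte nuclei (-3.01 and -3.76 CPM) and myeloid nuclei (-0.65 and -0.83 CPM) of both libraries, so that a Vegfc difference within those classes is not read from these ratios. With 1 library per genotype the difference between classes was not tested.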

How the results depend on the processing

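No paired analysis was possible because there was 1 library per genotype and the labels carry no replicate numbers. Of 113 alternative ratios for 10 member and class pairs, 104 had the sign of the reported ratio and 60 lay within its counting interval. Vegfa in adipocyte nuclei (-1.61) stayed below 0 in all 11 alternatives: -1.66 without a filter, -1.54 in Leiden clusters, -1.55 without the top doublet scores, -1.54 as a mean over nuclei, -1.80 centred on the median ratio, -1.55 thinned to 1000 UMIs and -1.02 within cluster 0. Flt1 in endothelial nuclei (-0.17) was -0.0117 in Leiden clusters, -0.00461 as a mean over nuclei and -0.0211 thinned, and it changed sign to 0.0204 without the top doublet scores and to 0.62, 1.10 and 0.13 within clusters 2, 4 and 12. Kdr in endothelial nuclei (-0.77) was -0.64 in Leiden clusters, -0.61 without the top doublet scores, -1.82 and -0.87 within clusters 2 and 12, and 0.23 within cluster 4. Vegfc and Flt4 in endothelial nuclei changed sign to -0.46 and -0.84 within cluster 4, and Nrp1 to 0.35 after subtraction of other classes and 0.29 within cluster 4. Nrp2 in endothelial nuclei ranged from -3.74 within cluster 2 to -0.11 after the subtraction. The adipocyte share of Vegfa UMIs was higher in KO by class calls and lower by Leiden clusters. The pathway genes above the fold in endothelial nuclei numbered 3 with a minimum of 200 UMIs, against 5. The cause of these changes was not tested, other than that fewer genes qualify under the stricter minimum. Depth limits Vegfb and Flt4 most, and Vegfc in capillary nuclei.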
